A study of Homo sapiens with 24 samples.

Results

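The mRNAs of 10 glycolytic enzymes were followed across 24 RNA sequencing libraries. They were the rows of the count table whose Ensembl identifiers map to GAPDH, PGK1, ENO1, PKM, ALDOA, LDHA, TPI1, PGAM1, GPI and HK2, 10 of 61853 gene rows in all. All 10 passed the filter on low counts, which left 18916 genes to test. The libraries held cytoplasmic RNA of 293T cells, an established human embryonic kidney line that carries the SV40 large T antigen. In every library the cells had DIS3 knocked down by the short hairpin RNA DIS3-sh2, and DIS3 was put back either as the D146N mutant or as the wild-type protein (WT), so no group had unaltered DIS3. Cytoplasmic extract was spun through a sucrose gradient, and RNA of its fractions 3, 4, 7 and 8 was sequenced. The 8 groups were D146N fractions 3, 4, 7 and 8 and WT fractions 3, 4, 7 and 8, with 3 libraries each, which the submitters call biological replicates. Nothing in the labels gives the end of the gradient at which numbering began, whether the rescued lines were single clones, or how much RNA each fraction held.

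Glycolysis turns glucose into pyruvate in the cytosol. Hexokinase traps glucose as its phosphate, an isomerase and aldolase lead to 3-carbon sugars, and the later enzymes recover ATP and NADH before lactate dehydrogenase regenerates NAD+. Transformed lines such as 293T use the pathway heavily, and its mRNAs are abundant, stable and translated by polysomes. In a sucrose gradient particles part by size and density, so an mRNA's place follows the ribosomes and proteins bound to it. DIS3 is a nuclease of the RNA exosome that trims RNA from the 3' end and can also cut within it. D146N replaces an aspartate of the site that cuts within RNA.

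Totals ran from 21.15 to 32.99 M counts a library. A gene's counts scaled to a fixed library total (CPM) are a share of the library, not an amount per fraction or per cell. Small structural and mitochondrial RNAs took 55.5 to 57.0% of counts in D146N fractions 7 and 8 and 80.0 to 81.3% in D146N fractions 3 and 4, against 69.9 to 76.6% in WT fractions 7 and 8 and 58.5 to 59.9% in fractions 3 and 4 of WT. Trimmed mean of M values (TMM) factors, which set the typical gene as the zero of a fold change, were 2.81 in D146N fraction 7 and 0.367 in D146N fraction 3, against 0.365 in WT fraction 7 and 2.51 in WT fraction 3. Fold changes are given on that scale, and again on library totals where the scale changes what is seen. DIS3 itself, endogenous and rescue reads together, lay between 86.7 and 115 CPM in D146N fractions 7 and 8, 7.79 and 9.63 in D146N fractions 3 and 4, 4.54 and 6.28 in WT fractions 7 and 8, against 91.4 and 112 in WT fractions 3 and 4, so gene counts do not check the mutation. Of 8 fixed 293T markers VIM (median 110 CPM over the libraries), KRT8 (17.6), LIN28B (15), KRT18 (12.2) and CDH2 (8.14) were above 0 in every library, whereas the medians of NEFM, PAX2 and NEFL were 0.576, 0.239 and 0.212 CPM, with NEFM at 0 in 1 library and NEFL in 3. Of 10 markers of other cell types CD3E was at 0 in 24 libraries and PTPRC and CDH5 were at 0 in 23, while ALB reached 142 CPM. The summed markers of other cell types were 139 to 160 CPM in D146N fractions 7 and 8, 6.08 to 8.48 in D146N fractions 3 and 4, 7.83 to 28.6 in WT fractions 7 and 8 (at most 10.5 without replicate 3 of fraction 8), against 129 to 140 in WT fractions 3 and 4. Their part in the results was not tested. One library, WT fraction 8 replicate 3, stood apart: the SD of its log2 ratios to the other replicates was 0.89, against 0.10 to 0.19 in the 7 other groups. Values that it moves are also given without it, where shares of all genes called are over the 19639 genes that then passed the filter. Because the GAPDH value of that library set it apart, GAPDH without it is a description, with no test. TPI1 and ALDOA were also high in it, 3.15 and 2.61 times the mean of replicates 1 and 2. Calls of other members without it follow a choice made on these same data, so they are descriptions as well.

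GAPDH, glyceraldehyde-3-phosphate dehydrogenase, makes the first NADH of the pathway and is widely used as a reference mRNA. It had 782, 785 and 759 CPM in D146N fraction 7 and 784, 753 and 757 in D146N fraction 8. It had 90.1, 98.3 and 93.6 CPM in D146N fraction 3 and 95.7, 90.4 and 90.0 in D146N fraction 4. In WT it had 58.8, 59.2 and 57.9 CPM in fraction 7 and 63.6, 60.3 and 956 in fraction 8, against 697, 678 and 707 in fraction 3 and 694, 710 and 720 in fraction 4. High and low fractions were thus opposite in the 2 genotypes, and replicate 3 of WT fraction 8 alone broke the pattern. In order of level, D146N fractions 7 and 8 came first and lay above WT fractions 4 and 3, then came D146N fractions 3 and 4, and WT fractions 7 and 8 last when replicate 3 is set aside. Within each pair of neighbouring fractions the values overlapped, except in WT fractions 7 and 8, where the replicates of fraction 8 all exceeded those of fraction 7.

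Hexokinase 2 (HK2), which commits glucose to the cell, followed the same course at far lower counts. It had 29.0, 21.5 and 23.7 CPM in D146N fraction 7, 2.45, 1.68 and 2.23 in D146N fraction 3, 0.783, 1.31 and 1.05 in WT fraction 7, against 24.5, 25.2 and 26.8 in WT fraction 3. Glucose-6-phosphate isomerase (GPI) lay between 75.0 and 87.2 CPM in D146N fractions 7 and 8, 5.22 and 6.40 in D146N fractions 3 and 4, 3.36 and 5.22 in WT fractions 7 and 8, against 72.3 and 90.6 in WT fractions 3 and 4. Neither HK2 nor GPI overlapped between low and high fractions, and replicate 3 of WT fraction 8 held 1.18 CPM of HK2 and 5.22 of GPI, no more than 6.70% of the WT mean in fractions 3 and 4.

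Aldolase A (ALDOA), which splits fructose bisphosphate, lay between 86.4 and 90.7 CPM in D146N fractions 7 and 8, 6.16 and 8.14 in D146N fractions 3 and 4, 4.64 and 13.9 in WT fractions 7 and 8, against 70.4 and 78.4 in WT fractions 3 and 4. Triosephosphate isomerase (TPI1), which interconverts the 2 triose phosphates, lay between 173 and 179, 13.1 and 15.6, 9.43 and 32.7, and 119 and 132 CPM in the same sets of libraries. For both mRNAs the top value of WT fractions 7 and 8 was replicate 3 of fraction 8, and that value still lay under every library of WT fractions 3 and 4. Without it the highest values of WT fractions 7 and 8 were 5.64 CPM for ALDOA and 10.4 for TPI1.

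The mRNAs of the later steps followed the same course. Enolase 1 (ENO1) lay between 338 and 365 CPM in D146N fractions 7 and 8, 23.5 and 25.7 in D146N fractions 3 and 4, 16 and 22.2 in WT fractions 7 and 8, against 285 and 304 in WT fractions 3 and 4. Pyruvate kinase (PKM), which makes ATP and pyruvate, lay between 174 and 188, 12.6 and 16.1, 9.84 and 14.5, and 164 and 174 CPM in those sets. Lactate dehydrogenase A (LDHA), which turns pyruvate into lactate, lay between 166 and 180, 16.8 and 20.6, 16.3 and 21.7, and 144 and 167 CPM. The low fractions of D146N and of WT overlapped for PKM and LDHA but not for ENO1, whose D146N values were all higher. For PKM the overlap came from replicate 3 of WT fraction 8 (14.5 CPM); without it WT fractions 7 and 8 reached 11.1 CPM, under the lowest D146N value of 12.6. Phosphoglycerate kinase 1 (PGK1), which makes the first ATP, averaged 42.7 ± 2.35 CPM over the D146N libraries of fractions 7 and 8 and 3.41 ± 0.386 in D146N fractions 3 and 4, against 2.39 ± 0.225 in WT fractions 7 and 8 and 43.3 ± 1.70 in fractions 3 and 4 of WT (SD, n = 6 each). Phosphoglycerate mutase 1 (PGAM1), which moves the phosphate ahead of enolase, averaged 59.1 ± 2.74, 5.82 ± 0.689, 5.30 ± 0.689 and 50.0 ± 2.49 CPM in the same sets (SD, n = 6 each). Over the whole table of 10 members, no D146N library of fractions 7 and 8 overlapped one of fractions 3 and 4 (10 of 10 above, against 81.1% of all genes), and in WT 9 of 10 lay below without overlap (73.5% of all genes), the exception being GAPDH.

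**Figure D1:**
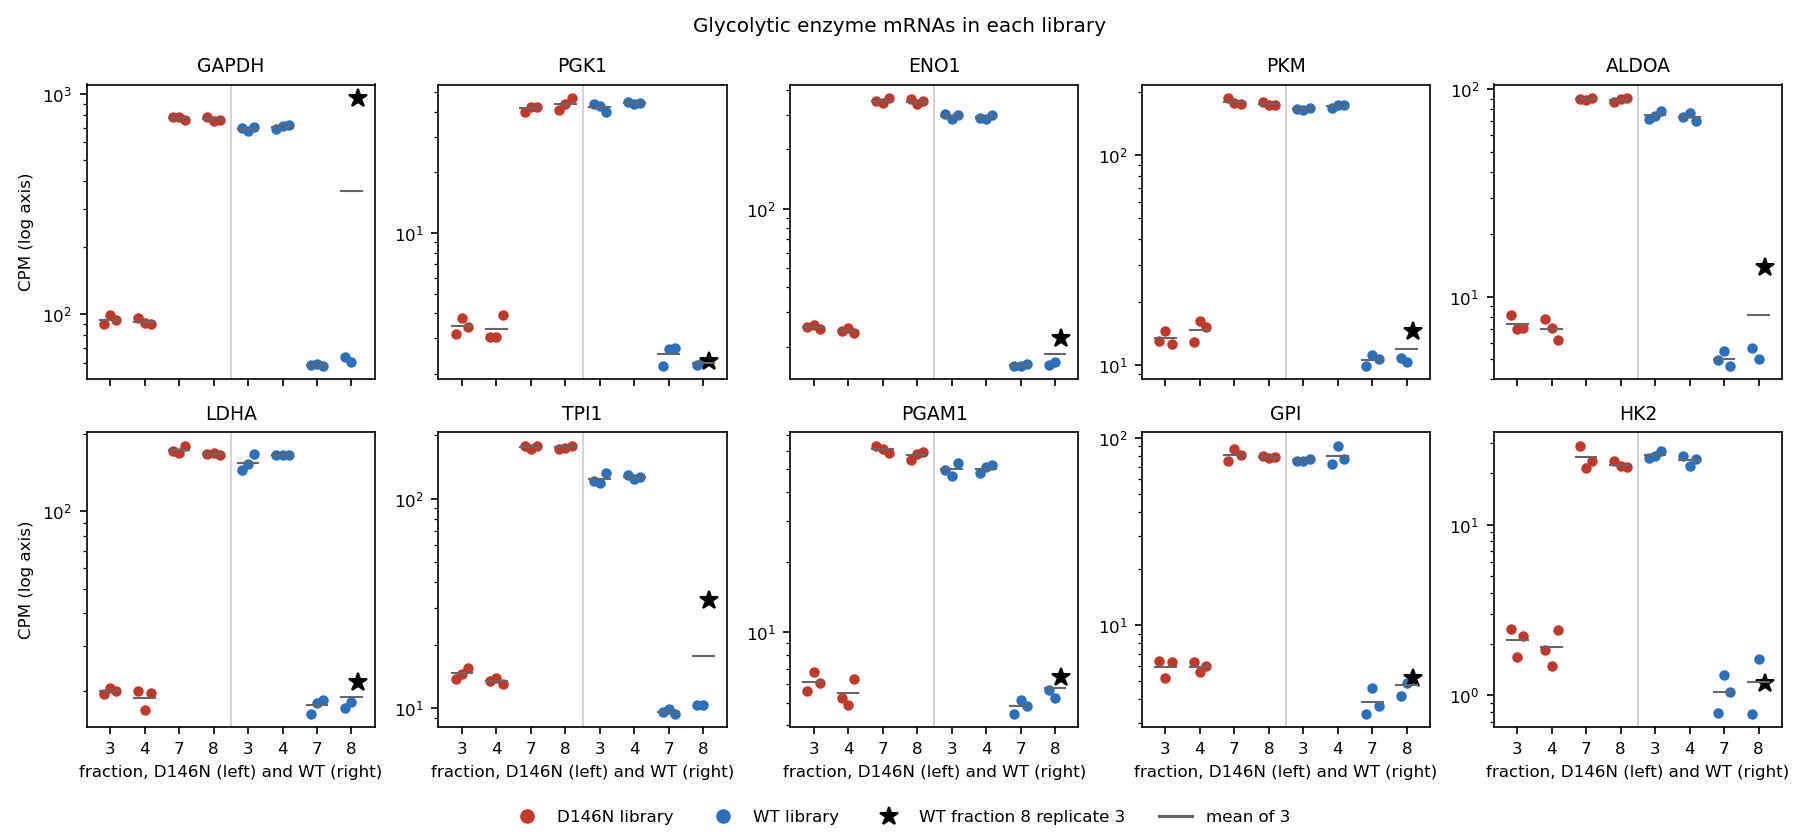
CPM of each mRNA in each library on a log axis, D146N groups (red) left of WT groups (blue), with fractions 3, 4, 7 and 8 in order and a grey bar at the mean of 3 libraries; the star is WT fraction 8 replicate 3. D146N fractions 7 and 8 and WT fractions 3 and 4 sit high for all 10 mRNAs, and the star leaves its group for GAPDH (956 CPM), TPI1 (32.7) and ALDOA (13.9).

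The genes lie on 9 chromosomes, GAPDH and TPI1 sharing chromosome 12. LDHA, GAPDH and HK2 are shown because the hexamer CACGTG, the E-box bound by MYC, occurs in the 250 bases before an annotated start; the hexamer is its own reverse complement and is in capitals. Sequences are from RefSeq, GRCh38.p14, on the plus strand, 5' to 3'. LDHA, chr11:18394313-18394562, holds the hexamer at 185 and 87 bases before its start.
LDHA: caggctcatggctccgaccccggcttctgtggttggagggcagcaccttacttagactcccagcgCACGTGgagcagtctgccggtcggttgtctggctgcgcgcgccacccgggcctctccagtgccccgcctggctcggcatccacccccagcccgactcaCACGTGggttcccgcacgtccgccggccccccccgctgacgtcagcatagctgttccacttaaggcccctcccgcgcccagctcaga
GAPDH, chr12:6535014-6535263, holds it at 81 bases, in a window inside the gene's annotated span.
GAPDH: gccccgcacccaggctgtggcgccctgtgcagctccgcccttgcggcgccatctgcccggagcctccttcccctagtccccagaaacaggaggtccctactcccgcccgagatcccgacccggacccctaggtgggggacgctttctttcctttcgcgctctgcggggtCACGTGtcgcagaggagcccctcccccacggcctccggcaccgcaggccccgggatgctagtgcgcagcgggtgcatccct
HK2, chr2:74834920-74835169, holds it at 194 and 149 bases, before a start that also lies inside the gene's span.
HK2: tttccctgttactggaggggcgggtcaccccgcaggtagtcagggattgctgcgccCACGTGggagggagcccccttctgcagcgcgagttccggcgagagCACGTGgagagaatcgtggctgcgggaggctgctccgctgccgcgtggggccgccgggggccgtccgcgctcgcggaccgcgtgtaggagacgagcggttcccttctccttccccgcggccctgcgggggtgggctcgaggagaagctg
CACGTG was in 4 of 15 windows of the 10 members, those of GAPDH, ALDOA, LDHA and HK2, against 6.34% of 35116 windows of the same length. All 10 had at least 1 window. GAPDH, ALDOA, LDHA and HK2, which share the hexamer, had log2 fold changes of 0.28 (-0.79 without replicate 3 of WT fraction 8), -0.89, -0.45 and -1.78 between fractions 7 and 8 and fractions 3 and 4 of WT, described below. A match describes letters only, and nothing is drawn from it about a factor.

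In D146N, 9 of the 10 mRNAs were higher in fractions 7 and 8 than in 3 and 4, where 29.9% of all genes tested were called higher and 30.4% lower. The log2 fold change was largest for ENO1 (0.91, SE 0.05, adjusted p = 1.29e-16, edgeR's quasi-likelihood test with Benjamini-Hochberg adjustment), GPI (0.81, SE 0.08, adjusted p = 2.4e-11) and PKM (0.75, SE 0.06, adjusted p = 4.68e-13). PGK1 and TPI1 each changed by 0.72, ALDOA by 0.71, HK2 by 0.62, PGAM1 by 0.42 and LDHA by 0.21 (SE 0.06, adjusted p = 0.00165). GAPDH was 0.12 higher with an SE of 0.41, and did not pass (adjusted p = 0.815). The median of the 10 was 0.71, against 0.09 over all genes. On library totals 10 of 10 were higher (88.8% of all genes), from 3.05 for GAPDH to 3.84 for ENO1, with a median of 3.64 against 2.99 over all genes. The 24 libraries share one estimate of each gene's spread, and GAPDH's SE in D146N, where its libraries agree closely, includes the spread of WT fraction 8. Without WT fraction 8 replicate 3 GAPDH was at 0.14, and the other 9 members passed as before (30.7% of all genes higher).

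In WT the direction was the other one. Fractions 7 and 8 held less than 3 and 4 for 9 of 10 mRNAs, where 39.2% of all genes tested were called lower and 34.7% higher. HK2 had the largest change (-1.78, SE 0.14, adjusted p = 6.31e-14), followed by PGK1 (-1.50), GPI (-1.50), ENO1 (-1.42, adjusted p = 3.08e-22), PKM (-1.25), ALDOA (-0.89), TPI1 (-0.63), PGAM1 (-0.56) and LDHA (-0.45, SE 0.06, adjusted p = 7.12e-09). GAPDH gave 0.28 with an SE of 0.41 and did not pass (adjusted p = 0.559). The median was -1.07, against -0.17 over all genes, and on library totals 10 of 10 were lower (83.6% of all genes) with a median of -3.73 against -2.82 over all genes. Without WT fraction 8 replicate 3 GAPDH was at -0.79 and the other 9 were again lower (38.2% of all genes), with a median of -1.18 over the 10. The spread of the members, from HK2 to GAPDH, was 2.05 on the log2 scale with that library and 1.26 without it, when LDHA stood at the top, against 0.79 in D146N.

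The difference between the 2 genotypes in this contrast, D146N minus WT, was positive and passed for 9 of 10 members, where 41.5% of all genes were called positive and 35.6% negative. It ran from 0.66 for LDHA (SE 0.08, adjusted p = 3.09e-09) to 2.40 for HK2 (SE 0.19, adjusted p = 8.79e-14), with ENO1 at 2.33, GPI at 2.31 and PGK1 at 2.22. GAPDH was -0.15 (SE 0.58, adjusted p = 0.82) with all libraries and 0.93 without WT fraction 8 replicate 3, when the other 9 passed again (41.4% of all genes positive). The median was 1.80, against 0.31 over all genes. On library totals 10 of 10 were positive (88.1% of all genes), with a median of 7.38 against 5.86 over all genes. A change in where the mRNAs lie and a difference in how fractions were numbered or collected between the genotypes cannot be told apart in this design.

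Set side by side within a fraction, D146N was lower than WT in fractions 3 and 4 and higher in 7 and 8. In fraction 3, 7 of 10 were lower (23.9% of all genes, with 25.9% higher), from PGAM1 at -0.24 to GPI at -0.89 (SE 0.11, adjusted p = 1.23e-08), while LDHA (-0.18), TPI1 (-0.31) and GAPDH (-0.11) did not pass. With DESeq2 PGAM1 did not pass there and LDHA did. In fraction 4, 8 of 10 were lower (22.8% of all genes, with 25.7% higher), from LDHA at -0.36 to GPI at -0.96, and TPI1 (-0.45) and GAPDH (-0.17) did not pass, although TPI1 did with DESeq2. In fraction 7, 9 of 10 were higher (32.4% of all genes, with 31.2% lower), from LDHA at 0.35 to HK2 at 1.62 (SE 0.20, adjusted p = 6.71e-09), and GAPDH at 0.78 had an SE of 0.59 and did not pass. In fraction 8, 9 of 10 were higher (32.5% of all genes, with 32.8% lower), from LDHA at 0.43 to PGK1 at 1.56 (SE 0.12, adjusted p = 1.19e-13). GAPDH was -1.36 there (SE 0.59, adjusted p = 0.0538), and 0.76 without WT fraction 8 replicate 3. Without that library the 9 mRNAs other than GAPDH passed in each of the 4 fractions, lower in 3 and 4 (25.1% and 24% of all genes) and higher in 7 and 8 (33% and 30% of all genes). On library totals, with all libraries, 10 of 10 were lower in fraction 3 and in fraction 4 (84.7% and 84.4% of all genes). On that scale 10 of 10 were higher in fraction 7 (83.6% of all genes) and 9 of 10 in fraction 8 (80.9%), all but GAPDH. These 4 comparisons share no library with each other, but 1 estimate of spread.

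**Figure D2:**
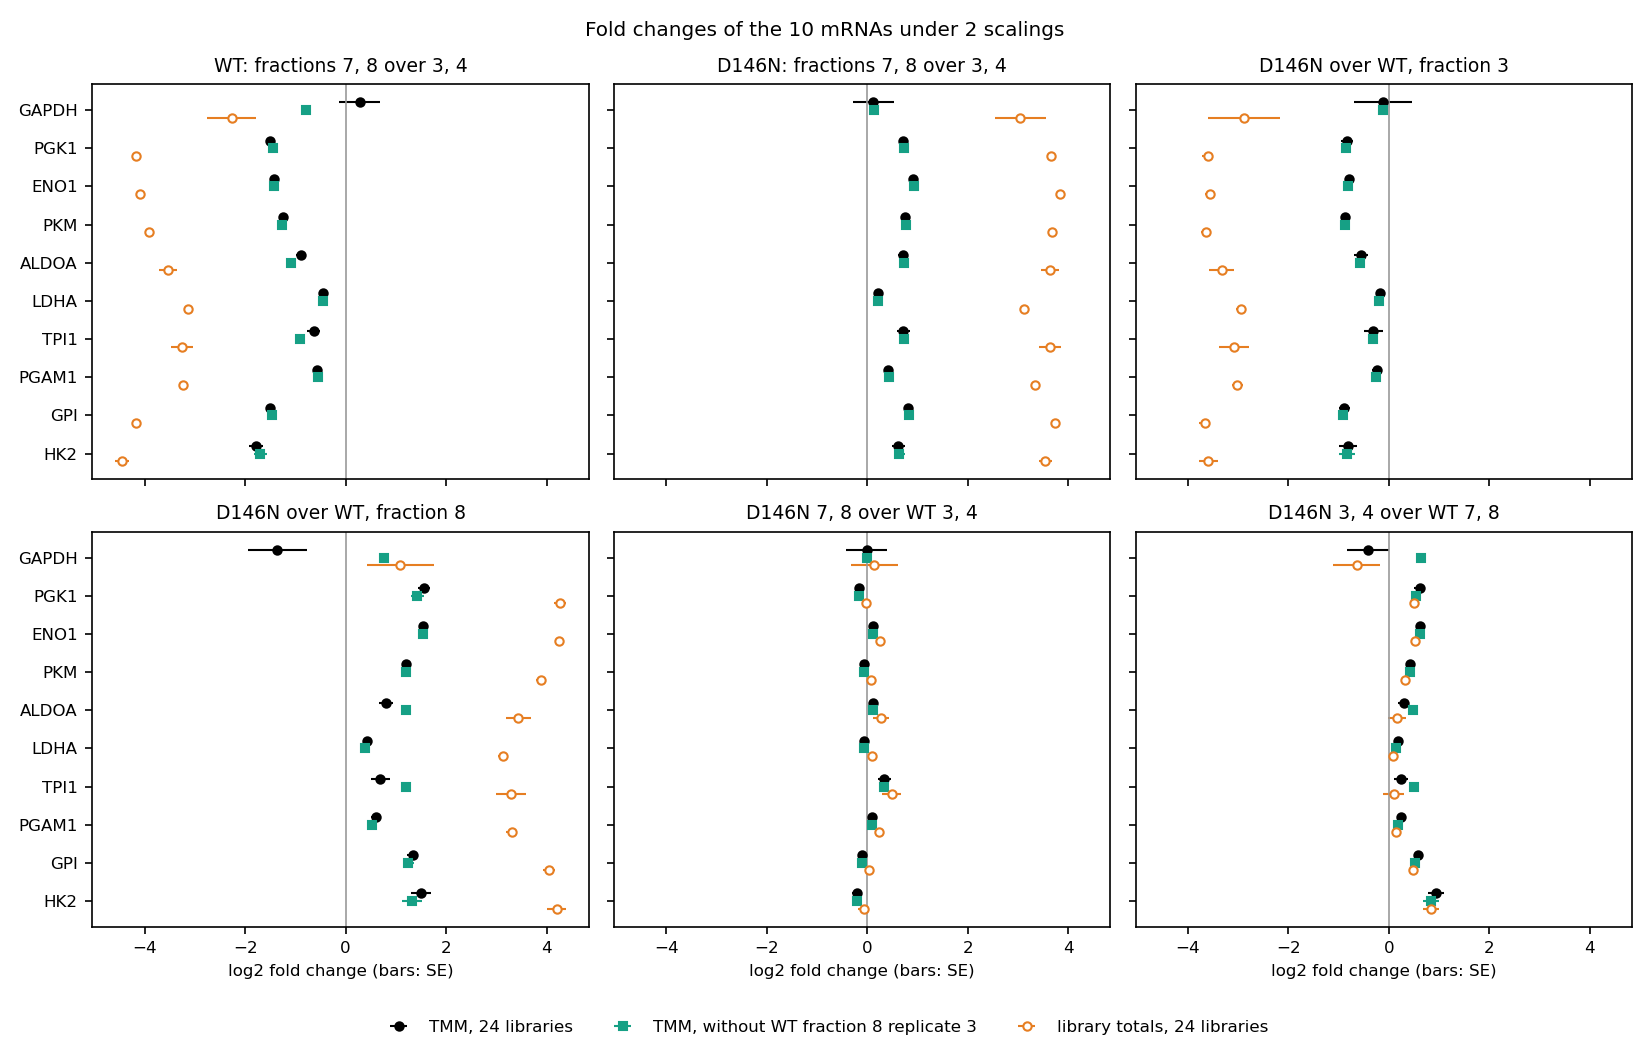
Log2 fold changes with SE of the 10 mRNAs in 6 comparisons: black points with TMM over 24 libraries, green squares with TMM without WT fraction 8 replicate 3, open orange points on library totals. Removing that 1 library gives GAPDH -0.79 in place of 0.28 in the WT contrast, and 0.76 in place of -1.36 in fraction 8.

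D146N fractions 7 and 8 against WT fractions 3 and 4 gave log2 fold changes from -0.21 for HK2 to 0.34 for TPI1, with a median of -0.04 against 0.01 over all genes, and no member passed in edgeR's test, where 6.94% of all genes were called higher and 10.4% lower. Of the members 4 had an unadjusted p under 0.05 (PGK1, ENO1, TPI1 and HK2), as had 5663 of 18916 genes. DESeq2 called 2 members (ENO1 and TPI1), and 3865 of all genes in either direction. On library totals 2 members were called higher, where 16.9% of all genes were higher and 5.36% lower. TPI1 had 176 ± 2.70 CPM in these D146N libraries, against 126 ± 4.88 in these WT libraries (SD, n = 6 each), and its adjusted p was 0.0773. In CPM every D146N library lay above every WT library for 5 of the 10, GAPDH, ENO1, ALDOA, TPI1 and PGAM1, against 13% of all genes. Without WT fraction 8 replicate 3, 3 members were called higher (ENO1, ALDOA and TPI1, 11.3% of all genes) and PGK1 was called lower (13.2%). That library is in neither set. Leaving it out kept TPI1 at 0.34, while its SE, which rests on the shared spread, went from 0.13 to 0.04. In the low sets, D146N fractions 3 and 4 against WT fractions 7 and 8, 8 of 10 members were higher (17% of all genes, with 12.1% lower), with a median of 0.37 against 0.01 over all genes. HK2 led at 0.94 (SE 0.16, adjusted p = 2.15e-05), then ENO1 at 0.62 (SE 0.06, adjusted p = 1.14e-10), PGK1 at 0.61 and GPI at 0.58. TPI1 (0.25) and GAPDH (-0.41, and 0.64 without WT fraction 8 replicate 3) did not pass; without that library 8 of the 9 other than GAPDH were higher (16.5% of all genes), all but PGAM1. On library totals 5 of 10 were higher (12% of all genes), and ALDOA, LDHA and PGAM1 did not pass there or with DESeq2.

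With all 24 libraries edgeR called no member between neighbouring fractions. Fraction 4 against 3, in D146N and in WT, gave members between -0.16 and 0.14 on the log2 scale, and fraction 8 against 7 in D146N gave -0.12 to 0.10. No member and no gene of 18916 was called in any of the 4 neighbouring comparisons, although 668 to 1726 genes had an unadjusted p under 0.05; DESeq2 called 9 genes in WT fraction 8 against 7 and none in the other 3, and edgeR on library totals called 1 there. With replicate 1 or 2 of WT fraction 8 left out, up to 3 members were called higher in that comparison. The share of all genes called in those fits was not computed, so that count says nothing about the members in particular. With all libraries, 4 members had an unadjusted p under 0.05 in edgeR's test of WT fraction 8 against 7 (GAPDH, PGK1, ALDOA and TPI1), as had 1726 of 18916 genes. GAPDH was at 2.15 there (SE 0.61, adjusted p = 0.43), and without WT fraction 8 replicate 3 GAPDH was 0.05.

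GAPDH in WT fraction 8 replicate 3 was 15.4 times the mean of replicates 1 and 2, rank 4 of 9404 genes with at least 1 CPM, and 136% of the mean of WT fractions 3 and 4. The other members were closer to replicates 1 and 2. TPI1 was 3.15 times and ALDOA 2.61 times, whereas PKM was 1.38, ENO1 1.34, LDHA 1.23, PGAM1 1.18, GPI 1.15, PGK1 1.04 and HK2 0.975, around the median of 1.26 over all genes. Of all genes 13% were at least 2-fold, 1222 genes, and 16 were at least 10-fold. In the 21 libraries of the other 7 groups every member lay between 0.663 and 1.45 times the mean of its other 2 replicates. Among genes of related pathways the highest folds were those of TALDO1, the transaldolase of the pentose phosphate pathway (9.0), IDH3G (6.03) and MDH2 (5.57), both of the citric acid cycle, and the phosphatase PGP (4.45), whereas DLD, PDHB, PDK1 and PDK3 were at 0.904 to 0.929. Of 8 transport and control genes with at least 1 CPM 1 was at least 2-fold, of 7 pentose phosphate genes 2, of 7 other isoenzymes 1 and of 21 genes of the pyruvate dehydrogenase complex and citric acid cycle 5. The medians of these 4 lists, 1.35 to 1.46, stood against 1.26 over all genes. Among genes with at least 10 CPM, chosen after their values were seen, GAPDH led, followed by STOML2 at 13.9-fold and RACK1 at 9.19-fold, and RPLP0 reached 7.21-fold and RPSA 5.95-fold. GAPDH's pseudogene rows held at most 0.843% of GAPDH's counts in any library, and the row GAPDHP1 had 2.83 CPM in that library, against 0.159 and 0.137 in replicates 1 and 2. Its cause was not tested.

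**Figure D3:**
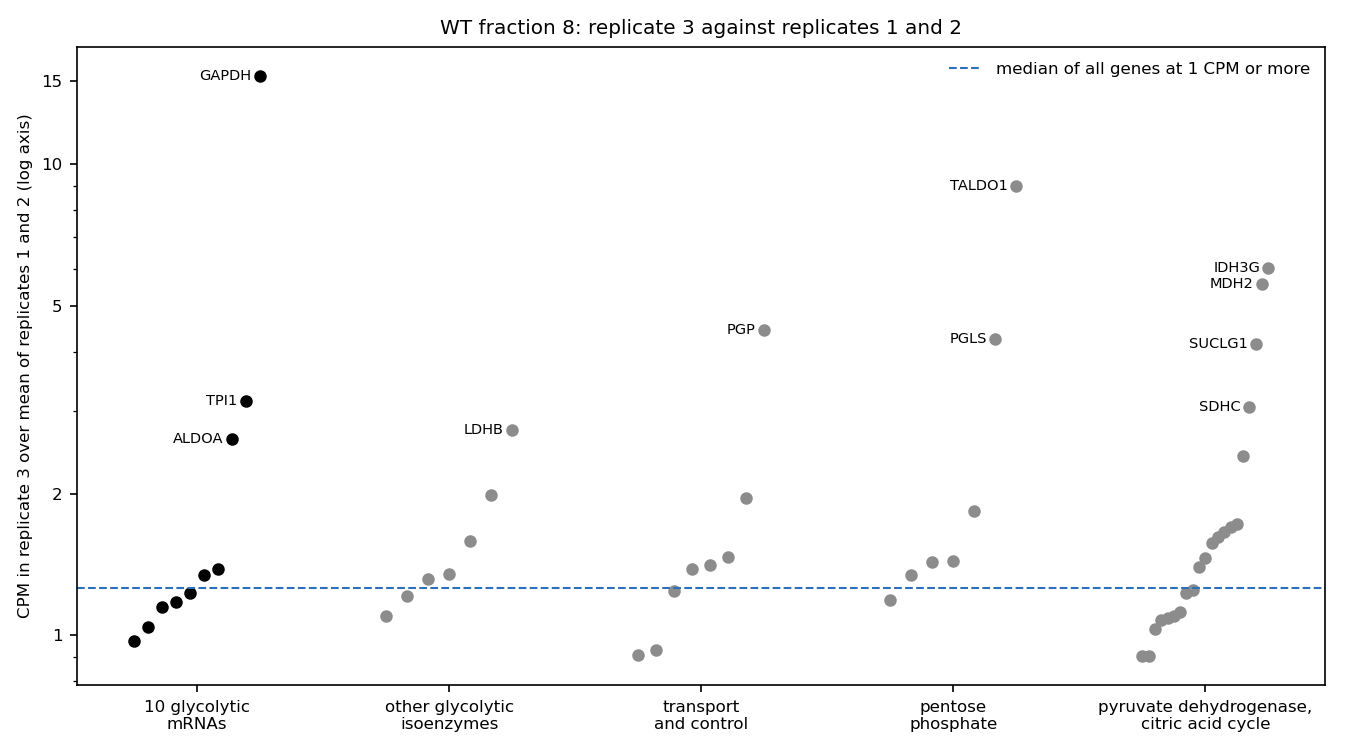
Fold of CPM in WT fraction 8 replicate 3 over the mean of replicates 1 and 2, on a log axis, for the 10 mRNAs (black) and 4 related gene lists (grey); the dashed line is the median of all genes (1.26). GAPDH stands at 15.4 and TPI1 and ALDOA at 3.15 and 2.61, with TALDO1 at 9.0 outside the list.

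The make-up of the glycolytic counts needs no scaling between libraries. GAPDH took 38.8 to 40.2% of the counts of the 10 mRNAs in D146N fractions 7 and 8 and 48.2 to 50.3% in D146N fractions 3 and 4. In WT it took 44.4 to 46.5% in fractions 7 and 8 apart from replicate 3 of fraction 8, where it took 88.8%, against 40.4 to 41.0% in fractions 3 and 4. GAPDH thus made up the larger part in the low fractions of both genotypes, with no overlap in either. ENO1 did the reverse, with 17.7 to 18.7% in D146N fractions 7 and 8 and 12.6 to 13.6% in D146N fractions 3 and 4, against 11.9 to 12.7% in WT fractions 7 and 8 without that replicate and 16.3 to 17.9% in WT fractions 3 and 4. These shares are descriptions with no test. Counts are not divided by transcript length, so the shares rank no transcript by number. Together the 10 held 0.196% of all counts in D146N fraction 7 and 0.0192% in D146N fraction 3, against 0.0130% in WT fraction 7 and 0.170% in WT fraction 3. WT fraction 8 held 0.0449 ± 0.0543% (SD, n = 3), between 0.0135 and 0.108%, and 0.0136% without replicate 3.

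**Figure D4:**
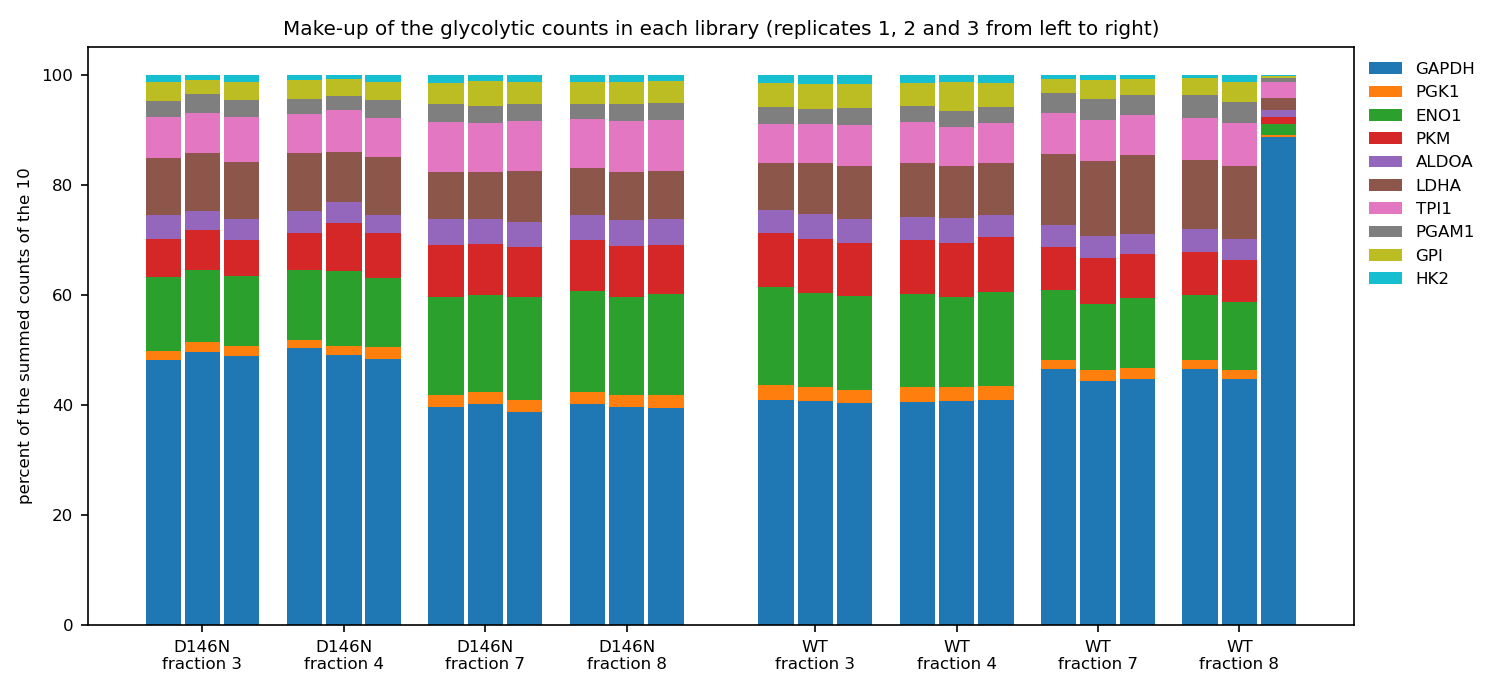
Share of each mRNA in the summed counts of the 10 in each library, in percent, D146N left of WT, fractions in order and replicates 1 to 3 within each. GAPDH takes 38.8 to 50.3% in the 12 D146N libraries and 88.8% in WT fraction 8 replicate 3.

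Genes of the rest of the pathway and of its branches changed in both directions. Of 20 other isoenzymes 12 were tested, and in D146N 5 of them were higher in fractions 7 and 8 than in 3 and 4, 2 were lower and 5 did not pass, where 29.9% of all genes were higher and 30.4% lower. PFKL, the liver form of phosphofructokinase, was highest (1.06, SE 0.10) and ENO3, the muscle enolase, lowest (-0.95, SE 0.19). In WT 3 of the 12 were higher and 6 lower (34.7% and 39.2% of all genes), with ENO3 at 1.14 and HK1 at -1.08 (SE 0.10). On library totals 12 of 12 isoenzymes were higher in D146N and 12 of 12 lower in WT, where 88.8% of all genes were higher in D146N and 83.6% lower in WT. Of 17 genes of glucose and lactate transport and control 7 were higher and 3 lower in D146N, against 3 higher and 10 lower in WT. SLC16A1, a lactate and pyruvate carrier, was 0.72 in D146N (SE 0.06, adjusted p = 5.33e-12) and -2.05 in WT (SE 0.07, adjusted p = 1.33e-24). PGP, which removes phosphoglycolate, had the other signs after TMM, -0.95 in D146N and 1.43 in WT, but on library totals 17 of 17 were higher in D146N and 17 of 17 lower in WT, PGP at -1.19. PGP in WT rested in part on replicate 3 of fraction 8: without it the mean of WT fractions 7 and 8 was 3.69 CPM in place of 5.96, and the WT value after TMM was 1.0.

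Of 8 pentose phosphate genes PGD and TKT were higher in D146N fractions 7 and 8 (0.90 and 0.70) and lower in WT (-1.40 and -1.68), like the 10, whereas PGLS was the reverse, -1.28 in D146N and 1.70 in WT (1.30 without replicate 3 of WT fraction 8). Of 21 genes of pyruvate dehydrogenase and the citric acid cycle 12 were higher and 4 lower in D146N (29.9% and 30.4% of all genes). In WT 5 of the 21 were higher and 9 lower, near the 34.7% and 39.2% of all genes. Without replicate 3 of WT fraction 8 the cycle counts were 14 higher and 4 lower in D146N (30.7% and 30.2% of all genes). In WT they were then 5 higher and 14 lower (33.1% and 38.2% of all genes). The counts of the isoenzymes and of the transport and control genes were as with all libraries. PDHA1 was 1.05 in D146N and -1.69 in WT, and PDHX -1.83 in D146N and 2.27 in WT (SE 0.08 each). PDHX had 16.7 ± 1.85 CPM in D146N fractions 7 and 8 and 7.82 ± 0.705 in D146N fractions 3 and 4, against 12.4 ± 2.63 in WT fractions 7 and 8 and 16.3 ± 1.91 in fractions 3 and 4 of WT (SD, n = 6 each), so on library totals it was lower in WT fractions 7 and 8 (-0.40) and higher in D146N fractions 7 and 8 (1.09), the reverse of its signs after TMM. On library totals 8 of 8 pentose phosphate genes and 21 of 21 of the cycle were higher in D146N and lower in WT. Of all genes 88.8% were higher in D146N and 83.6% lower in WT on that scale.

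Over the 8 group means of log2 values after TMM, the genes most like the mean of the 10 were TUBA1B (Pearson r = 0.9996), SF3A3 (0.9994), ATP6V1G2-DDX39B (0.9986), DDX39B (0.9984) and NUCB1 (0.9983). ATP6V1G2-DDX39B is a readthrough that can share reads with DDX39B. Of 5395 genes eligible 222 had r over 0.99, 4.11%. Among the members GPI (0.9957) and ENO1 (0.9924) were over 0.99 and GAPDH was at 0.36. Each member is itself part of that mean, so its r is not comparable with those of other genes. Without replicate 3 of WT fraction 8, GAPDH was at 0.9263, 384 of the eligible genes (7.12%) were over 0.99, and the 5 most alike genes were NISCH (0.9998), PA2G4, EEF1G, TUBA1B and IRGQ (0.9996 each), of which 1 was among the first 5. Across the 10 members the genomic span of the gene and the WT contrast gave Pearson r of -0.84, Spearman rho -0.82, and -0.71 and -0.76 without WT fraction 8 replicate 3; in D146N they were 0.43 and 0.44. The points share their libraries, and the correlation describes 10 genes only. Pseudogene rows, which can share reads with a member, held at most 7.38% of TPI1's counts, 2.81% of PGAM1's, 1.82% of ENO1's, and less for the others.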

How the data were processed

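The authors deposited 1 table of values per gene, which by their form are expected counts with no normalization because column totals differ and 73.3% of nonzero values were whole within 0.005. Per the submitters' processing notes the build was hg38 and the tools included featureCounts 1.5.1, HISAT2 2.1.0, Bowtie2 2.3.5 and SAMtools; roles, options and strand setting are not given in the sources used here. The labels' protocols name ribosomal RNA depletion. Symbols matched 99.92% of 61853 rows. The plan assumed whole counts, so values were rounded. edgeR 4.0.16 in R 4.3.3 used TMM factors, the filterByExpr filter on low counts within groups, robust quasi-likelihood dispersion and 8 group means over 24 libraries (biological coefficient of variation 13.7%) and Benjamini-Hochberg adjustment over 18916 genes; calls are at an adjusted p under 0.05. Alternatives were library totals, totals without small and mitochondrial RNAs, median-of-ratios factors, DESeq2 1.42.0, no filter, a replicate block, and each library left out. In simulated counts with known changes the test recovered nearly every change of 2-fold or more, but a minority of the smallest changes simulated. Apart from the changed genes, the 2 groups compared there had the same make-up. The simulation therefore cannot check the scaling between libraries as unlike as those of these fractions. CPM used unrounded values. Depth gives counting precision only, and no molecular identifiers are stated. The 10 mRNAs and the gene lists were chosen with earlier results of these data known. All 10 were tested in every comparison, but in some only part of them is named, such as the ends of the range and members that did not pass. From each related list up to 2 genes each way with the largest changes that passed were eligible; genes of WT fraction 8 replicate 3 were named by fold, after their values were seen. The genes most like the members were the 5 with the highest Pearson r among genes with a mean of at least 10 CPM. Positions and promoters came from RefSeq, GRCh38.p14. With the strand setting not given, overlapping antisense reads cannot be told apart.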

Additional observations from a re-analysis of the deposited data

Results flagged for a closer look

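The fraction contrast (7 and 8 against 3 and 4) differed between D146N and WT for 9 of the 10 mRNAs by a test of the difference itself, in edgeR's quasi-likelihood test with Benjamini-Hochberg adjustment. The difference, D146N minus WT, was 2.40 on the log2 scale for HK2, 2.33 for ENO1, 2.31 for GPI, 2.22 for PGK1, 2.0 for PKM, 1.59 for ALDOA, 1.35 for TPI1, 0.98 for PGAM1 and 0.66 for LDHA. Of all genes 41.5% were called in the same direction. GAPDH at -0.15 did not pass with all libraries. Groups of 3 libraries are too small for the check for a single outlying library, so GAPDH in WT fraction 8 replicate 3 is described in the results instead.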

How the results depend on the processing

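Between neighbouring fractions several small member values changed sign with the scaling. In WT fraction 8 against 7 ENO1, PKM and LDHA were -0.03, -0.05 and -0.10 with TMM and 0.19, 0.17 and 0.11 on library totals. In the other comparisons, apart from PKM, LDHA and GPI in 1 of them, the changes of sign with all libraries were GAPDH's. On library totals it was -2.27 in the WT fraction contrast, 5.32 in the interaction, 1.09 for D146N against WT in fraction 8 and 0.14 for D146N fractions 7 and 8 against WT fractions 3 and 4. On totals without small and mitochondrial RNAs these were -1.66, 3.55, 0.53 and 0.04. The interaction was also 0.15 with no filter and 0.10 with the replicate block, and the last comparison, -0.01 with TMM, was 0.0 with median-of-ratios factors and with DESeq2, which gave GAPDH no adjusted p. In that comparison PKM, LDHA and GPI were 0.08, 0.09 and 0.03 on library totals. Members called higher there numbered 2 on library totals (16.9% of all genes), 2 with DESeq2 and 1 without small and mitochondrial RNAs, against 0 (6.94%). DESeq2 called 3865 of 18916 genes in either direction there, against 3283 with edgeR. For D146N fractions 3 and 4 against WT fractions 7 and 8, members called higher numbered 5 on library totals (12% of all genes), with median-of-ratios factors and with DESeq2, against 8 (17%). DESeq2 called 5804 genes in either direction there, against 5517 with edgeR. In fraction 8, median-of-ratios factors called 1 member lower, against 0 (32.8% of all genes). Shares of all genes were not computed for median-of-ratios factors or for totals without small and mitochondrial RNAs.

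With single libraries left out, GAPDH ranged from -0.79 to 0.49 in the WT contrast, -0.35 to 0.93 in the interaction, -1.81 to 0.76 in fraction 8, -0.01 to 0.02 for D146N fractions 7 and 8 against WT fractions 3 and 4, and -0.65 to 0.64 for the converse sets. Members called lower in fraction 8 ranged from 0 to 1. For D146N fractions 7 and 8 against WT fractions 3 and 4, those called higher ranged from 0 to 3 and those called lower from 0 to 1. In WT fraction 8 against 7, those called higher ranged from 0 to 3, reached without replicate 1 or 2 of WT fraction 8. Apart from the fit without replicate 3 of WT fraction 8, shares of all genes were not computed for these fits. These counts therefore cannot be read as particular to the members. Leaving out a library of D146N fractions 7 or 8 or of WT fractions 3 or 4 changed the library that TMM takes as its standard, WT fraction 3 replicate 1, to WT fraction 8 replicate 3, and with single libraries left out the median of all genes ran from 0.36 to 0.58 in the interaction, against 0.31 with all 24.

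No effect shared by same-numbered libraries was seen. Over 36 same-numbered pairs within a genotype, r of the deviations from group means ran from -0.12 to 0.07. Such values cannot show whether same-numbered fractions came from 1 gradient. Under the replicate block 92 results kept their direction and call and 1, GAPDH's interaction, changed sign. With small and mitochondrial RNAs left out of the total, the summed share of the 10 was 0.0967, 0.0963, 0.442 and 0.444% in D146N fractions 3, 4, 7 and 8 and 0.417, 0.424, 0.0529 and 0.155% in WT; pseudogene rows gave 0.197% in D146N fraction 7. Protein length was not run; gene span was used, chosen after seeing the data. The cause of the other changes was not tested.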
